A study of Mus musculus with 4 samples.

Results

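Proliferating type 2 conventional dendritic cells (cDC2) of the mouse spleen were examined as 386 cells out of 31790 barcodes. Members had 500 or more genes detected and 1000 or more RNA UMIs (unique molecular identifiers, each standing for 1 captured molecule), with under 10% of UMIs mitochondrial. They carried at least 4 UMIs of the CD172a antibody and at most 2 of the XCR1 antibody, at most 2 Ccr7 UMIs, and none of Siglech, Mpo or Elane. A summed count of at least 6 UMIs over 6 cell cycle genes, Top2a, Birc5, Ube2c, Cenpf, Pclaf and Stmn1, completed the rule. The same gate held 3425 cells in all, of which 2297 had a six-gene sum of 0 and served as the comparison cells and 742 had a sum of 1 to 5. Library 1 held 168 members and 1140 comparison cells, and library 2 held 218 and 1157.

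The spleens were those of WT C57BL6 animals, all labelled steady-state, so no group carried a treatment or a genetic change. Magnetic negative selection enriched the dendritic cells of 2 mice, which were then stained with fluorescent and barcoded antibodies and sorted. The loaded mixture held more type 1 cells (cDC1: CD64-negative, CD11c-positive, MHCII-positive, XCR1-positive, CD172a-negative) than cDC2 (the same gate with XCR1 and CD172a reversed), plus random live cells, so shares of cells reflect this mixture. The labels do not tie a library to a single mouse. P-values measure how far differences between classes of cells vary between these 2 libraries only, which may be technical. That spread is estimated over all classes fitted together, those of cDC1 included. Both libraries came from the same condition, and each comparison below is between classes of cells within them. Between the libraries, 61 barcodes were shared, and 2 member barcodes occurred in the other library, neither of them as a member there.

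Conventional dendritic cells are short-lived antigen-presenting cells that are replenished from bone marrow precursors, and part of the splenic pool still divides in the tissue under the growth factor Flt3 ligand. In the spleen, cDC2 present antigen on MHC class II to CD4 T cells. They include a form that depends on Notch2 signalling, marked by Esam, Cd4 and Dtx1, and a form with monocyte-like features, marked by Cd209a and Clec10a. A dividing cell copies its DNA in S phase with the MCM helicase, the sliding clamp Pcna and the nucleotide enzymes, and then condenses and separates its chromosomes in G2 and mitosis. Entry into S phase is driven by D cyclins with Cdk4 or Cdk6 and held back by CDK inhibitors. Many mitotic genes are repressed in resting cells through a promoter element called CHR, often with CCAAT boxes nearby, and S phase genes through E2F sites.

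Promoters of the rule genes are shown because these genes chose the cells and peak at different points of the cycle. Top2a encodes the topoisomerase that untangles copied DNA, Birc5 encodes survivin of the chromosomal passenger complex, and Ube2c encodes an enzyme that marks mitotic cyclins for destruction. Cenpf encodes a kinetochore protein, Pclaf encodes a PCNA-binding factor, and Stmn1 encodes a microtubule destabiliser. The RefSeq table (build GRCm38.p6) matched 5 of the 6 genes by symbol. Each line gives the 150 bases before the annotated start, written 5′ to 3′ on the strand of the gene. Capitals mark a CHR (TTTGAA or TTCGAA) or a CCAAT box on either strand.
Top2a, chr11:99024190-99024339, minus strand: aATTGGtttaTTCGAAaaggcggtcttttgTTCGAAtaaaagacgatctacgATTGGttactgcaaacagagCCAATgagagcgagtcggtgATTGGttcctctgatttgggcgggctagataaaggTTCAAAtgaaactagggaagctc
Ube2c, chr2:164769779-164769928, plus strand: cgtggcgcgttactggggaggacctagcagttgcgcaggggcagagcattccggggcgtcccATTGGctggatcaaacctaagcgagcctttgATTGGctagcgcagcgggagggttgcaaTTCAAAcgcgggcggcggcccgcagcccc
Cenpf, chr1:189688087-189688236, minus strand: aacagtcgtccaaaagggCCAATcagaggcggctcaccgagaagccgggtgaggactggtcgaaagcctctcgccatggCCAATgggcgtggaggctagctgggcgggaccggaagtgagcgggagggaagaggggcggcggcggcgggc
Pclaf, chr9:65890173-65890322, plus strand: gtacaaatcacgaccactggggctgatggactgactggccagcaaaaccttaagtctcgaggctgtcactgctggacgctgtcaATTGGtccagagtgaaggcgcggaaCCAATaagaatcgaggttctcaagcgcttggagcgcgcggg
Birc5, chr11:117849087-117849236, plus strand: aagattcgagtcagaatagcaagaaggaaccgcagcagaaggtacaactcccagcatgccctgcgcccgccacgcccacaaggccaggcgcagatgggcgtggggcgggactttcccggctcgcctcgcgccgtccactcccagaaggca
The Top2a window held 3 CHR matches and 4 CCAAT boxes, the nearest CHR starting 23 bases before the start of the gene. Ube2c held 1 CHR and 2 CCAAT boxes, Cenpf and Pclaf each held 2 CCAAT boxes and no CHR, and Birc5 held neither motif as spelled here. In the same window of all 32851 RefSeq promoters, 9.70% held a CHR, 24.5% a CCAAT box and 3.87% an E2F core (TTCCCGC or TTGGCGC), which none of the 5 windows held. These matches are descriptions of the letters and say nothing on binding.

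Each surface protein was counted through the 15-base barcode of its antibody. The antibodies that set the gate and those the surface results turn on were the following.
CD172a: gattcccttgtagca
XCR1: tccattacccacgtt
CD71: accgaccagtagaca
CD117: tgcatgtcatcggtg
CD115: ttccgttgttgtgag
CD301a: tgtatttactcaccg
CD172a (Sirpa) defines cDC2 and XCR1 defines cDC1. CD71 is the transferrin receptor, CD117 and CD115 are the receptors for stem cell factor and for CSF1, and CD301a is a C-type lectin.

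Members were larger libraries than the comparison cells. The median member had 7411.5 RNA UMIs in library 1 and 6712.5 in library 2, against 3731 and 3581 in the comparison cells. Median antibody UMIs were 819 and 754.5 against 615 and 553, and mitochondrial UMIs made up a median of 1.04% and 1.14% against 1.33% and 1.23%. The rule is a sum of UMIs, so depth and membership moved together, and the part of depth in the results was not tested apart from them. For this reason list counts outside the cell cycle are also given for cells of at least 5000 RNA UMIs, called deep cells below. Scrublet, a doublet caller, marked 10.1% and 7.80% of members and 2.98% and 2.68% of comparison cells, and these were kept unless stated. Levels are given per library as CPM (counts scaled to a fixed total of summed RNA UMIs), from 1393921 and 1618682 UMIs in members and 4453341 and 4375382 in comparison cells.

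The label was checked against marker RNA. Summed CPM of the 12 cDC2 marker genes was 1783 and 2062 in members, against 2629 and 2570 in the comparison cells and 181 and 205 in cDC1-gate cells with a six-gene sum of at least 6. Summed cDC1 markers were 1512 and 1292 in members against 975 and 1011, and 5448 and 5709 in those cDC1. The gate held cells with cDC2 RNA, and also cells with RNA of other lineages. Among members, 60 (15.5%) had at least 2 UMIs of Xcr1 plus Clec9a, against 4.27% of the shallower comparison cells. At least 20 UMIs of the neutrophil genes S100a8 plus S100a9 were found in 9 members, against 1 of 2297 comparison cells, and the 9 richest cells held 99.7% of all S100a8 UMIs of the members. For the globin gene Hbb-bs, the 9 richest cells held 98.8%. Fewer than 10 UMIs of H2-Aa plus H2-Ab1 were found in 21 members (5.44%, against 3.40%), and at least 3 UMIs of the monocyte gene Ly6c2 in 21 (5.44%, against 1.48%).

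A lineage filter was therefore added after seeing the data, and list counts outside the cell cycle are given with and without it. It kept cells with at least 10 UMIs of H2-Aa plus H2-Ab1, none of Cd3e, Cd79a, Ncr1, Xcr1 (which was not asked of the cDC1 gate) or 1 further lineage marker, and fewer than 20 UMIs of S100a8 plus S100a9. It left 272 members (117 and 155, or 70.5%) and 1988 comparison cells (992 and 996). Neutrophil marker RNA summed to 12950 and 8852 CPM in all members, against 63.1 and 96.2 in comparison cells, and to 37.0 and 27.4 in filtered members. Erythroid marker RNA summed to 2931 and 415 CPM against 45.8 and 104, and to 51.9 and 44.7 after the filter. Red pulp macrophage markers lay lower in members, at 91.8 and 106 CPM against 320 and 327, and at 35.8 and 44.7 against 257 and 346 after the filter. In filtered members the cDC2 markers summed to 2406 and 2484 CPM against 2753 and 2725, and the cDC1 markers to 785 and 737 against 740 and 705. In all members T cell markers summed to 81.8 and 32.7 CPM against 69.6 and 50.3, B cell markers to 28.7 and 29.0 against 49.4 and 46.4, and NK cell markers to 202 and 206 against 79.7 and 155.

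Members made up 10% of the cDC2 gate in library 1 (95% exact binomial interval 8.61 to 11.5) and 12.5% in library 2 (11.0 to 14.1). In the cDC1 gate the share was 21.2% and 17.3%, and in T cells it was 4.24% and 4.51%. When each cell was thinned to 5000 UMIs and shallower cells were left out (1231 and 1283 of the cDC2 gate, 565 and 975 of the cDC1 gate, 721 and 626 T cells), the order turned, with 30.3% and 37.2% for cDC2, 17.6% and 15.0% for cDC1, and 22.9% and 32.1% for the 105 and 84 T cells left. Over the whole gates the six-gene RNA was 864 and 1029 CPM for cDC2 and 882 and 765 for cDC1. No order between the gates or against T cells is read from these shares.

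The rule genes are described without a test, since they chose the cells. The six-gene sum ran from 6 to 113 UMIs in members, with a median of 35. Stmn1 had a UMI in 384 of the 386 cells, Pclaf in 331, Top2a in 319, Birc5 in 292, Ube2c in 238 and Cenpf in 181. Stmn1 stood at 1551 CPM in library 1 and 1637 in library 2, Pclaf at 784 and 843, Top2a at 692 and 741, Ube2c at 575 and 627, Birc5 at 476 and 508, and Cenpf at 219 and 255. In cDC1-gate cells chosen by the same sum, Top2a was 383 and 433 CPM and the 6 genes together 2750 and 2790, against 4297 and 4611 in proliferating cDC2. The cDC1-gate cells were deeper, with medians of 13163.5 and 12336 RNA UMIs, so the same sum of UMIs is a smaller part of their RNA. Cells with a sum of 1 to 5 held 330 and 317 CPM of the 6 genes.

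**Figure D1:**
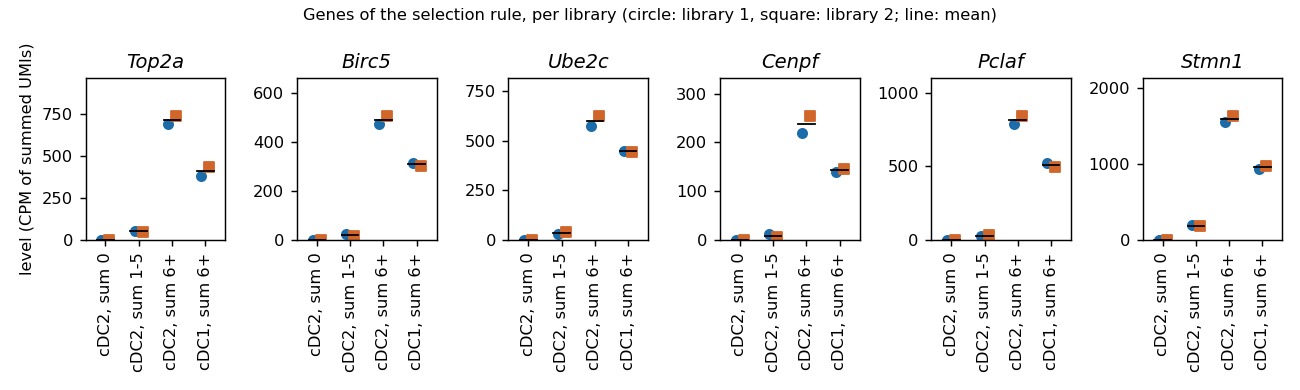
CPM of the 6 genes used by the rule (vertical axis, 1 panel per gene) in cDC2-gate cells with a six-gene sum of 0, 1 to 5 and at least 6, and in cDC1-gate cells with a sum of at least 6, with 1 point per library. Top2a reads 692 and 741 in proliferating cDC2, 383 and 433 in cDC1 and 0 by construction where the sum is 0. Lines mark the mean of the libraries.

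Cells close to the threshold carried little mitotic RNA. The 35 members with a sum of 6 or 7 had 9.76 CPM of Mki67, a proliferation marker outside the rule, with a UMI in 2 cells. The 56 cells just outside, with a sum of 4 or 5, had 9.50 CPM and a UMI in 3 cells, and the 351 members with a sum of at least 8 had 150 CPM and a UMI in 173 cells. Summed CPM of the S phase list stepped from 2435 just outside to 3294 just inside and 4431 above, and of the G2 and mitosis list from 1178 to 1664 and 7056. The members nearest the threshold thus lay closer to the cells just outside it than to the other members in all these measures.

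Members with S phase RNA and members with G2 and mitosis RNA were both present. Each was placed by the list with more UMIs in that cell, either the 41 genes of DNA replication and S phase or the 52 of G2 and mitosis, none of them rule genes. In library 1, 88 of 168 cells (52.4%, 95% exact binomial interval 44.5 to 60.1) leaned to G2 and mitosis, 78 leaned to S and 2 were tied. In library 2, 121 of 218 (55.5%, 48.6 to 62.2) leaned to G2 and mitosis, 96 to S and 1 was tied, and 5 cells in each library had list sums within 2 UMIs of each other. After the lineage filter the G2 and mitosis shares were 47.9% and 52.9%, after thinning 54.8% and 57.5%, and in cDC1-gate cells with the same sum 57.0% and 58.0%. The intervals of the 2 gates overlapped in each library.

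**Figure D2:**
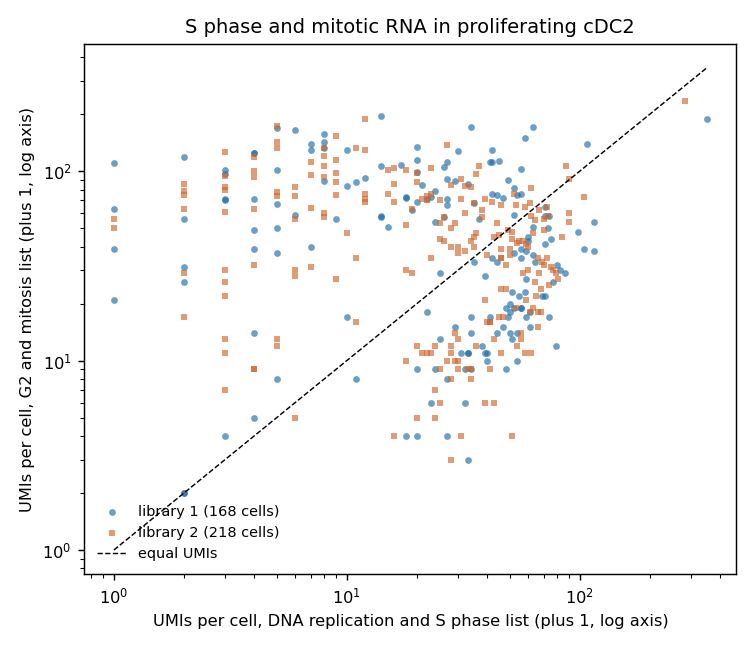
Each point is 1 proliferating cDC2, with its UMIs of the S phase list (horizontal) and of the G2 and mitosis list (vertical), each plus 1, on log axes. Circles are the 168 cells of library 1 and squares the 218 of library 2, and the dashed line marks equal values, with 88 and 121 cells above it.

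Cells on both sides of that line differed in the genes that define the phases, which is a description because those lists placed the cells. Mcm3, a subunit of the replicative helicase, stood at 377 and 409 CPM in S-leaning cells and 67.7 and 88.5 in G2-leaning cells. Pcna stood at 604 and 560 against 144 and 156, and Ccne2, a cyclin of the entry into S phase, at 21.6 and 36.5 against 2.55 and 7.55. Ccnb2, a mitotic cyclin, ran the other way at 33.2 and 46.8 against 361 and 306, as did Cdc20, the activator of the anaphase-promoting complex, at 21.6 and 24.8 against 218 and 234. Of the rule genes, Ube2c was 48.1 and 81.9 CPM in S-leaning and 986 and 1035 in G2-leaning cells, and Cenpf 13.3 and 46.8 against 377 and 411. Pclaf was higher in S-leaning cells, at 985 and 1067 against 637 and 671. Stmn1 was close in both, at 1586 and 1698 against 1527 and 1582. H2-Aa, an MHC class II chain on neither list, was 8257 and 8134 CPM in S-leaning and 8514 and 8790 in G2-leaning cells. G2-leaning cells were deeper, with median RNA UMIs of 8110 and 7032 against 6663 and 6328.

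The cell cycle lists moved with the rule genes and are given as counts, with nothing read from them. Against the comparison cells, all 41 tested genes of DNA replication and S phase were past the threshold and higher, with a median log2 difference of 3.14. In G2 and mitosis 51 of 52 were higher, with a median of 5.37, and 1 was lower. Higher genes also made up 18 of 18 for chromatin and histone variants (median 1.54), 7 of 9 tubulins (1.55) and 14 of 15 DNA repair genes (3.44). Across all 12895 genes tested, 31.8% passed in either direction (14.5% higher, 17.3% lower), and the median was −0.09. The one lower mitotic gene was Pttg1, which encodes securin, the guard of sister chromatid cohesion, at 48.8 and 58.1 CPM in members against 78.4 and 70.4.

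Values of single genes of these lists are given as a description, since the cells were chosen by genes that move with them. Rrm2, the subunit of ribonucleotide reductase made in S phase, was 201 and 209 CPM in members and 1.35 and 2.51 in comparison cells. Tyms, which makes thymidylate, was 195 and 174 against 9.88 and 7.09. The cyclin gene Ccna2 stood at 140 and 146 CPM against 0.898 and 1.60, and the cyclin-dependent kinase gene Cdk1 at 194 and 161 against 2.92 and 3.20. For the chromatin protein gene Hmgb2 the values were 2923 and 2525 CPM against 300 and 271, and for the tubulin gene Tubb5 they were 2076 and 2202 against 259 and 248. The DNA end-joining gene Xrcc5, by contrast, was 2.15 and 3.71 CPM against 2.02 and 3.20. In each of these genes but Xrcc5 both member libraries lay above both comparison libraries, and nothing is read from this either.

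Outside the cell cycle lists, RNA of the comparison was tested with edgeR's quasi-likelihood test, library as a block, with Benjamini-Hochberg adjustment over all genes tested. The call rate there was 31.1% (3964 of 12760 genes), so a list with about that share called differs little from the rest of the genome. Under the lineage filter 23% of 12454 genes passed (1556 or 12.5% higher, 1305 or 10.5% lower, median −0.05). In deep cells 18.9% of 12431 passed (11.1% higher, 7.79% lower, median 0.01). The split of directions depends on scaling, with 1869 genes higher and 2227 lower with TMM, and 2427 higher and 1415 lower with library totals, which moved the median of all genes to 0.07. In summed counts, fewer cells of a kind and less RNA per cell cannot be told apart.

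Genes of biosynthesis rose. Of 20 tested genes of nucleotide and one-carbon synthesis, 16 rose and none fell, with a median log2 change of 0.79 (13 rose after the lineage filter, median 0.75, and 12 rose in deep cells). Impdh2, the rate-limiting enzyme of guanine nucleotide synthesis, was 141 and 139 CPM in members and 55.5 and 55.8 in comparison cells (log2 change 1.17 ± 0.13 SE, adjusted p = 2.88e-08). Paics, an enzyme of purine synthesis, was 114 and 94.5 against 48.3 and 47.1 (0.97 ± 0.11, adjusted p = 3.85e-08). Cad, which starts pyrimidine synthesis, was 21.5 and 12.4 against 4.27 and 5.94, and Ctps, which makes CTP, 20.8 and 22.2 against 4.72 and 8.46. Both libraries moved the same way in each of these 4 genes.

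Glycolysis followed in part, with 6 of 13 genes risen and 1 fallen (median 0.12), 6 and 0 after the filter, and 6 and 1 in deep cells. Tpi1, triose phosphate isomerase, was 163 and 166 CPM against 54.6 and 60.3 (log2 change 1.36 ± 0.10, adjusted p = 1.37e-11), and Gapdh was 1222 and 1231 against 552 and 602 (0.93 ± 0.07). Pgk1, Pgam1, Pkm and Ldha made up the other risers. The fallen gene was Hk2, a hexokinase at the entry of the pathway, at 33.0 and 34.6 CPM against 44.2 and 39.5, a change that missed the threshold after the lineage filter (adjusted p = 0.0526). Nuclear genes of oxidative phosphorylation rose in 35 of 78 and fell in 4 (median 0.21), with 30 and 4 after the filter and 27 and 3 in deep cells. Mitochondrially encoded genes rose in 0 of 14 and fell in 7 (median −0.38), which became 1 risen and 5 fallen after the filter and 0 and 5 in deep cells. Of 22 cholesterol synthesis and uptake genes 4 rose and 2 fell, which became 3 and 1 after the filter and 1 and 0 in deep cells. Over all cells this was a smaller share than the 31.1% called outside the cell cycle lists, so nothing is read from this list. Among its risers, Fdps, which makes farnesyl diphosphate, was 58.1 and 47.6 CPM against 22.5 and 26.5 (0.94 ± 0.15, adjusted p = 1.74e-05).

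Genes of the nucleolus and those of the ribosome itself took different directions. Of 17 tested genes of the MYC family and nucleolus, 8 rose and 2 fell (median 0.32), with the same counts after the filter and 7 and 2 in deep cells. Ncl, nucleolin, was 649 and 646 CPM against 362 and 383 (0.64 ± 0.06, adjusted p = 8.67e-09), and Dkc1, which modifies ribosomal RNA, 70.3 and 61.8 against 28.7 and 25.8 (1.12 ± 0.12, adjusted p = 3.41e-08). Myc itself was low, at 16.5 and 10.5 CPM against 10.3 and 10.5, and did not pass (adjusted p = 0.649). The fallen genes were Mxd1 and Mxd4, antagonists of MYC at its partner MAX, with Mxd4 at 20.8 and 23.5 CPM against 76.3 and 59.7 (−1.78 ± 0.17, adjusted p = 5.07e-09). Mxd4 was past the threshold in 16 of 16 settings, from −2.04 to −1.62. Among 85 cytosolic ribosomal protein genes 4 rose and 65 fell, with a median of −0.33, or −0.17 with 9 risen and 48 fallen under library totals, and these RNAs remained among the most abundant. After the lineage filter 4 rose and 54 fell (median −0.25), and in deep cells 2 rose and 65 fell.

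**Figure D3:**
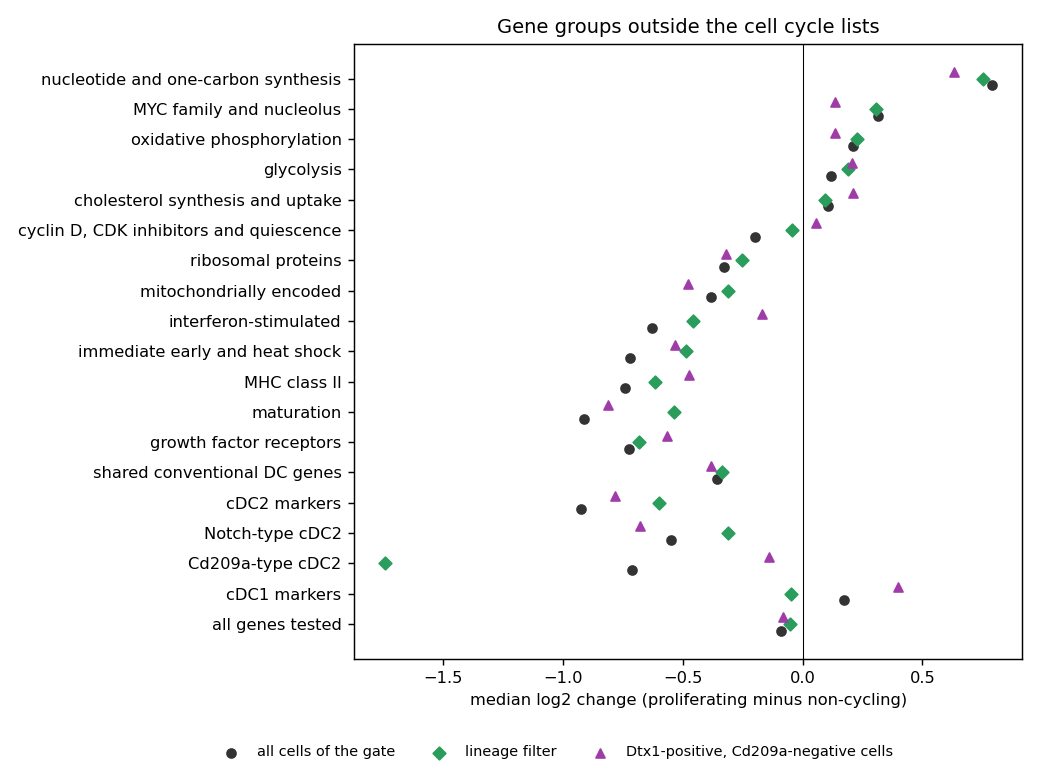
Median log2 difference between proliferating and comparison cDC2 for each gene list (horizontal axis), with all cells of the gate as circles, lineage-filtered cells as diamonds and Dtx1-positive Cd209a-negative cells as triangles. The cell cycle lists are left out. Over all cells of the gate nucleotide synthesis lies at 0.79, MHC class II at −0.74, maturation at −0.91 and all genes tested at −0.09.

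The D cyclins took different directions. Ccnd2 was 24.4 and 18.5 CPM in members and 85.8 and 79.3 in comparison cells (log2 change −2.12 ± 0.23, adjusted p = 3.52e-08). Ccnd1 also fell, from 858 and 892 to 602 and 617 (−0.68 ± 0.06, adjusted p = 2.27e-09), and Ccnd3 rose from 87.1 and 95.5 to 210 and 190 (0.97 ± 0.09, adjusted p = 6.98e-10). Cells with a sum of 1 to 5 lay between, with Ccnd2 at 66.8 and 58.4 and Ccnd3 at 111 and 110. Ccnd2 and Ccnd3 passed in 16 of 16 settings, from −2.78 to −1.72 and from 0.83 to 1.13, and Ccnd1 in 15 of 16, from −0.72 to −0.09. After the lineage filter Ccnd2 fell by 2.60, Ccnd1 by 0.33, and Ccnd3 rose by 0.84. The partner kinase gene Cdk4 rose from 68.9 and 61.5 to 167 and 160 CPM (1.17 ± 0.09, adjusted p = 4.75e-11).

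**Figure D4:**
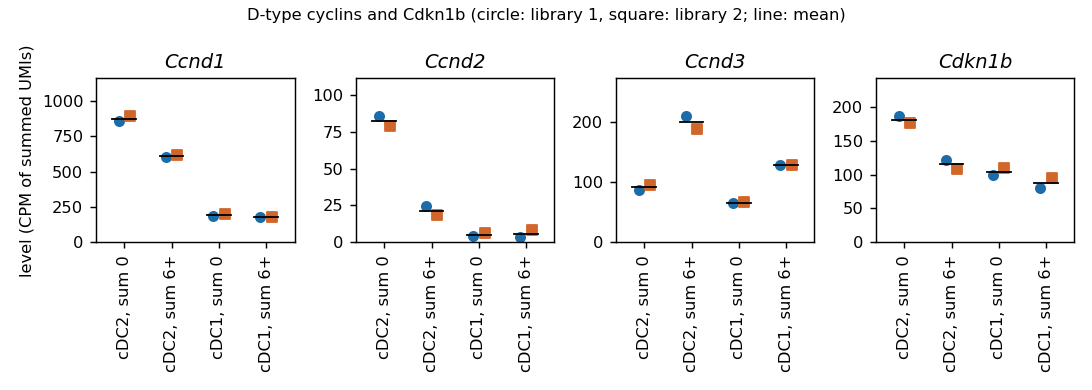
CPM of Ccnd1, Ccnd2, Ccnd3 and Cdkn1b (vertical axis, 1 panel per gene) in comparison and proliferating cDC2 and in the same classes of the cDC1 gate, with 1 point per library. Ccnd2 reads 85.8 and 79.3 in comparison and 24.4 and 18.5 in proliferating cDC2 and stays at or below 8.36 in the cDC1 gate, whereas Ccnd3 is higher in the proliferating cells of both gates.

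CDK inhibitor genes took different directions. Cdkn1b, which encodes p27 of resting cells, fell from 186 and 176 to 121 and 109 CPM (−0.82 ± 0.09, adjusted p = 7.8e-08). Cdkn2d, which encodes the D-cyclin kinase inhibitor p19, rose from 40.0 and 38.4 to 139 and 160 (1.78 ± 0.10, adjusted p = 8.24e-14), and Cdkn2c, which encodes p18, from 14.6 and 15.8 to 53.1 and 41.4 (1.46 ± 0.21). Cdkn1a, which encodes p21, rose from 98.1 and 111 to 164 and 193 (0.62 ± 0.09, adjusted p = 3.37e-06, and 0.94 after the filter). Among other genes of this list that are known for restraining growth, Btg1 fell, at 743 and 668 CPM against 1737 and 1583 (−1.39 ± 0.06, adjusted p = 2.53e-16), Rbl1 rose by 1.87 (adjusted p = 3.91e-09) and Rb1 did not pass (adjusted p = 0.128). Of all 24 tested genes of the list of D cyclins, CDK inhibitors and quiescence, 9 rose and 8 fell (median −0.20), after the filter 8 rose and 6 fell (median −0.05), and in deep cells 6 rose and 4 fell of 22 (median 0.09).

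Genes of cDC2 identity were lower in the proliferating cells. Of 12 tested cDC2 markers none rose and 10 fell (median −0.92), and 8 fell after the lineage filter (median −0.60). Sirpa, the gene of CD172a, was 108 and 112 CPM against 218 and 206 (−1.10 ± 0.09, adjusted p = 7.17e-11). The gate asked for at least 4 UMIs of its protein, a fixed count that is stricter for comparison cells, which had fewer antibody UMIs. The part of this cut in the fall of Sirpa was not tested. Irf4, a transcription factor of cDC2, was 67.4 and 66.7 against 111 and 117 (−0.93 ± 0.11, adjusted p = 7.27e-08). Zeb2, a transcription factor that sets cDC2 apart from cDC1, was 73.2 and 84.0 against 163 and 165 (−1.21 ± 0.09, adjusted p = 5.42e-11), and it kept this size after the filter at −1.19. In deep cells 6 of the 12 fell and the median was −0.35. For each of Sirpa, Irf4 and Zeb2 the libraries of the 2 classes did not overlap, but the share of all genes with such separation was not counted.

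Genes of the Cd209a form fell too. Cd209a, a C-type lectin, was 48.1 and 45.1 CPM in members against 268 and 220 (−2.54 ± 0.12, adjusted p = 1.75e-15, and −2.30 after the filter), and it passed in 15 of 15 settings. At least 1 Cd209a UMI was found in 18.7% of members and 31.1% of the shallower comparison cells. Clec10a, the gene of CD301, was 2.87 and 2.47 CPM against 24.3 and 18.1 (−3.13 ± 0.54, adjusted p = 3.79e-05), and Csf1r, the CSF1 receptor, 33.0 and 42.6 against 97.0 and 95.3 (−1.49 ± 0.12, adjusted p = 1.45e-10). Lyz2, the lysozyme gene of monocytes and neutrophils, was 1370 and 1401 against 911 and 1055 in all cells (0.34 ± 0.08) but fell by 3.45 after the filter. Of the 11 genes of this list 1 rose and 6 fell over all cells (median −0.71), 0 rose and 9 fell after the filter (median −1.75), and 0 rose and 7 fell in deep cells. Red pulp macrophage genes fell in 8 of 8 (median −1.99), as they did after the filter (median −4.95) and in deep cells. Adgre1, a macrophage adhesion receptor gene, was 29.4 and 34.0 CPM against 97.0 and 96.7 (−1.76 ± 0.15, adjusted p = 2.32e-10). The part of macrophage RNA in the fall of the Cd209a-type genes was not tested.

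Genes of the Notch form were lower in part. Of 10 tested none rose and 7 fell (median −0.55), after the filter 1 rose and 4 fell (median −0.31), and in deep cells 1 rose, 3 fell and the median was 0.08. The riser after the filter, Areg, was raised by library 1 only, at 56.8 and 8.13 CPM in filtered members against 5.37 and 16.6. Dtx1, a Notch target, was 109 and 131 CPM against 144 and 142 (−0.40 ± 0.10, adjusted p = 0.00286), and at −0.08 after the filter it did not pass (adjusted p = 0.66). Esam was 15.1 and 19.8 against 27.8 and 28.8 (−0.85 ± 0.21, adjusted p = 0.00254, and 0.0721 after the filter), and Notch2 was 68.9 and 56.2 against 66.9 and 61.3 (adjusted p = 0.246). Cd4 fell from 68.9 and 73.8 to 29.4 and 30.9 (−1.41 ± 0.16, adjusted p = 4.41e-08), and by 1.13 after the filter. Whether the Notch and Cd209a lists differ was not tested. Within cells that had a Dtx1 UMI and no Cd209a UMI (61 and 82 members), 4 of 9 tested cDC2 markers and 10 of 12 genes of the MHC class II list fell. There 13.9% of 12702 genes passed (6.87% higher, 7.01% lower).

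Of 10 genes shared by conventional dendritic cells 2 rose and 6 fell, and after the filter, as in deep cells, 0 rose and 5 fell. Flt3, the receptor through which these cells are maintained, was 105 and 95.1 CPM against 111 and 102 (−0.25 ± 0.10, adjusted p = 0.0452), and it did not pass after the filter (adjusted p = 0.328). Csf2rb, the signalling chain of the GM-CSF receptor, was 72.5 and 79.1 against 124 and 121 (−0.85 ± 0.10, adjusted p = 1.59e-07). Kit was 91.1 and 98.2 against 131 and 118 (−0.55 ± 0.11, adjusted p = 0.000146, and 0.0616 after the filter). Growth factor receptor genes as a list fell in 9 of 12 with none risen (median −0.73), in 6 after the filter and in 5 in deep cells. Irf8, a transcription factor high in cDC1, was 533 and 421 CPM against 214 and 247 (0.89 ± 0.10), and at 0.17 after the filter it did not pass (adjusted p = 0.311). Of 13 progenitor and pre-DC genes 4 rose (Ly6c2, Ms4a3, Prtn3 and Myb) and 3 fell (Kit, Tcf4 and Cd7), with 3 risen and 1 fallen in deep cells. After the filter 1 of 12 rose (Runx2) and 2 fell (Ly6c2 and Cd7). There Ly6c2 fell by 1.22 and Myb, at 10.0 and 8.03 CPM against 2.02 and 1.83 over all cells, did not pass (adjusted p = 0.0806).

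MHC class II RNA was lower in the proliferating cells. All 12 tested genes of the MHC class II list fell, both over all cells (median −0.74) and after the lineage filter (median −0.61). That filter itself asks for MHC class II RNA in both classes. In deep cells 11 of 12 fell (median −0.62). The list also held Ciita, Ctss and March1, which are not MHC class II genes themselves. H2-Aa was 8403 and 8517 CPM in members, 12076 and 11267 in cells with a sum of 1 to 5 and 13650 and 12557 in the comparison cells (−0.79 ± 0.03, adjusted p = 2.93e-16). Its change ran from −0.83 to −0.48 over 16 settings, all past the threshold. Cd74, the invariant chain, fell by 0.72 ± 0.03, and Ciita, the master activator of these genes, by 0.52 ± 0.07 from 310 and 298 to 233 and 239 (adjusted p = 1.49e-06). Least changed was H2-DMb1, a peptide-loading chain, at 462 and 453 CPM against 471 and 497 (−0.24 ± 0.06).

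Maturation genes were lower as well. The gate left out cells with more than 2 Ccr7 UMIs, a fixed count that is stricter for the deeper members. The part of this cut in the lower values was not tested. Of 14 tested none rose and 12 fell (median −0.91), and after the filter 1 rose and 9 fell (median −0.54), as many as fell in deep cells. The costimulatory gene Cd86 was 181 and 182 CPM against 330 and 322 (adjusted p = 5.35e-11), and Cd40 was 17.9 and 30.9 against 50.7 and 48.5 (−1.16 ± 0.16, adjusted p = 2.4e-06). Il4i1, an amino acid oxidase of maturing cells, was 17.9 and 18.5 against 67.1 and 67.9 (−2.04 ± 0.18, adjusted p = 7.99e-10). Nfkb1 did not share in this, at 334 and 358 CPM against 316 and 291 (0.03 ± 0.08, adjusted p = 0.807), and it was the gene that rose after the filter (0.34).

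Interferon-stimulated genes fell in 13 of 20 with 1 risen (median −0.63), in 8 with 1 risen after the filter, and in 7 with none risen in deep cells. Isg15, a ubiquitin-like protein, was 162 and 152 CPM against 336 and 308 (−1.20 ± 0.11, adjusted p = 7.21e-10). The riser was the chemokine gene Cxcl10, at 81.1 and 46.3 against 28.7 and 30.2 (0.93 ± 0.32, adjusted p = 0.024), and Ifit1 differed between member libraries, at 37.3 and 4.94 CPM against 28.1 and 21.9. Immediate early genes, which the handling of cells can also induce, fell, with Junb at 962 and 880 CPM against 2097 and 1867 (−1.26 ± 0.06) and Egr1 at 190 and 190 against 403 and 384 (−1.22 ± 0.13). The risers among these 18 immediate early and heat shock genes (5 rose and 13 fell, median −0.72, 4 and 13 after the filter, 3 and 12 in deep cells) were heat shock genes, such as Hsp90aa1 at 997 and 866 CPM against 478 and 443 (0.85 ± 0.07, adjusted p = 5.48e-11). Of 11 p53 target genes 3 rose and 4 fell, 1 and 3 after the filter, and 1 and 2 in deep cells.

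Outside the cell cycle lists, genes were named by size of change. By the naming rule (at least 20 CPM in the higher class, the same sign in both libraries), 9 of the 12 highest were granule or granulocyte genes: Cebpe, Orm1, Ngp, Camp, Lcn2, Ltf, S100a9, S100a8 and Ly6g. Camp, an antimicrobial peptide gene, was 2921 and 2291 CPM against 8.53 and 5.03 in all cells, and its change was 0.05 after the filter (adjusted p = 0.966). The other 3 were Neil3, a DNA glycosylase at 32.3 and 32.7 CPM and at 0 in both comparison libraries, Sgo2a, a guard of centromere cohesion at 44.5 and 55.6 against 0.225 and 0, and the kinesin gene Kif14 at 23.7 and 30.3 against 0.225 and 0. Among the 12 lowest, Slfn5, an interferon-inducible gene, was 20.1 and 12.97 CPM against 96.3 and 95.8 (−2.72 ± 0.18, adjusted p = 2.02e-12, and −2.91 after the filter). Hpgd, the prostaglandin-degrading enzyme, was 10.0 and 8.03 against 53.9 and 48.9 (−2.67 ± 0.20, adjusted p = 1.65e-11), and Kdm5b, a histone demethylase, 5.74 and 3.71 against 20.7 and 22.9 (−2.38 ± 0.33, adjusted p = 1.92e-06). Igha, the antibody heavy chain of plasma cells, was named through 1 library, at 545 CPM in comparison library 2 and 15.7 in library 1. The others included Clec10a, Ace, Ms4a7, Cd209a, Vcam1, Fcgr4 and Spic, among which Vcam1, Fcgr4 and Spic are also known from macrophages or monocytes. Ranked under the filter instead, a choice made after values were seen, the 12 highest were all genes of the cycle, such as Esco2 at 101 and 119 CPM against 0.805 and 0.277.

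Surface protein was counted in the same cells and was not part of the six-gene rule. Levels are UMIs per 10000 antibody UMIs of a class. Of 170 antibodies tested, 18.2% passed (27 or 15.9% higher, 4 or 2.35% lower), and after the lineage filter 27.6% (43 or 25.3% higher, 4 lower). The split of directions depended on the setting. It was 11 higher (6.47%) and 8 lower (4.71%) under that filter without its granule step (11.2% in all), which differs by 1 member cell and had a median of −0.07 in place of 0.19. It was 13 and 16 among antibodies above the isotype level, 14 and 11 with the cDC2 classes alone, 17 and 12 without doublets, and 4 (2.35%) and 8 (4.71%) in deep cells (7.06% in all). The median of all antibodies lay at 0.10 on the log2 scale and moved between −0.11 and 0.19 over the settings, so the main changes are also given relative to that median. CD71, which imports iron-loaded transferrin, was 76.3 and 71.6 in members and 32.0 and 30.7 in comparison cells (1.46 ± 0.17, adjusted p = 7.56e-05, 1.37 above the median). It passed in 17 of 17 settings, between 1.10 and 1.75 above the median, and stood 1.33 above it after the lineage filter. Its gene Tfrc rose too, from 17.3 and 20.6 to 53.1 and 39.5 CPM (1.12 ± 0.17, adjusted p = 6.09e-06). CD71 UMIs per cell were 5.91 and 5.66 in S-leaning and 8.23 and 6.37 in G2-leaning members, the latter also having more antibody UMIs.

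**Figure D5:**
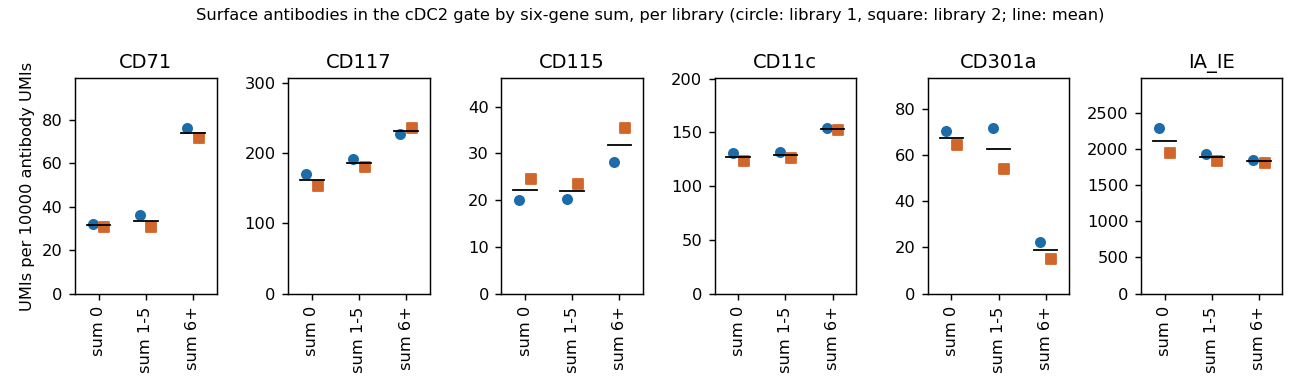
Antibody UMIs per 10000 (vertical axis, 1 panel per antibody) for CD71, CD117, CD115, CD11c, CD301a and IA_IE in cDC2-gate cells with a six-gene sum of 0, 1 to 5 and at least 6, with 1 point per library. CD71 is higher in the proliferating cells at 76.3 and 71.6, CD301a is lower at 22.6 and 15.1, and MHC class II (IA_IE) reads 1853 and 1804 against 2290 and 1940 where the sum is 0. Lines mark the mean of the libraries.

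For 5 surface molecules the protein passed as higher and the RNA as lower over all cells, and most of these pairs depended on the cells used. CD117, the Kit protein, was 228 and 236 per 10000 in members against 170 and 153 (0.74 ± 0.15, adjusted p = 0.00296, 0.64 above the median), while Kit RNA was lower as given above. It passed in 14 of 17 settings, but not in deep cells (0.52 above the median, adjusted p = 0.185). CD115, the Csf1r protein, was 28.2 and 35.4 against 20.1 and 24.5 (0.75 ± 0.16, adjusted p = 0.00329, 0.65 above the median) while Csf1r RNA had fallen. It also passed in 14 of 17, but in deep cells it stood 0.15 above the median (adjusted p = 0.845). CD11c was 154 and 152 against 131 and 124 (0.50 ± 0.11, adjusted p = 0.00438, 0.41 above the median), and its gene Itgax fell from 251 and 252 to 160 and 201 CPM. CD11c passed in 12 of 17 settings, deep cells among them (0.45 above the median, adjusted p = 0.022). CD29 and CD357 also rose while RNA of their genes Itgb1 and Tnfrsf18 fell over all cells, and after the filter neither RNA passed (adjusted p = 0.208 and 0.154). Of the 20 pairs of gene and antibody compared, 5 had protein risen and RNA fallen, 2 (CD71 and CD43) had both risen, 2 (CD301a and CX3CR1) had both fallen, and 7 had RNA fallen with protein not past the threshold. The pairs were a chosen part of the antibodies, and no rate over all pairs was computed, so these counts describe the chosen pairs only. Over all features tested, 15.9% of antibodies passed as higher and 17.3% of genes as lower. Pairs with protein risen and RNA fallen numbered 4 after the filter, 2 without its granule step (CD115 and CD11c) and 1 in deep cells (CD11c). Each change is relative to the total of its own kind of molecule, RNA or antibody.

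MHC class II protein did not pass over all cells. IA_IE was 1853 and 1804 per 10000 against 2290 and 1940 (0.02 ± 0.10, adjusted p = 0.914), and −0.07 relative to the median. After the filter, the only one of 17 settings where it passed, its fitted change was 0.24 (adjusted p = 0.0275), or 0.04 relative to the median. Its share of antibody UMIs was lower in both settings, at 2109 and 2022 against 2407 and 2049 after the filter, so its direction depended on the scaling. CD86 was 65.4 and 66.1 against 66.0 and 65.8 (0.22 ± 0.13, adjusted p = 0.263), and CD274 was 154 and 155 against 171 and 178 (adjusted p = 0.914). Of 7 surface maturation antibodies none passed over all cells and 2 rose after the filter. CD135, the Flt3 protein, was 5.32 and 5.44 against 5.59 and 6.76 (adjusted p = 0.914), ESAM 56.8 and 45.6 against 60.9 and 56.6 (adjusted p = 0.931), and CD4 268 and 271 against 390 and 345 (adjusted p = 0.3). A p above the threshold does not show that these levels are alike.

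CD301a fell. It was 22.6 and 15.1 per 10000 in members, 71.8 and 53.9 in cells with a sum of 1 to 5 and 70.6 and 64.6 in comparison cells (−1.63 ± 0.17, adjusted p = 7.41e-05, −1.73 relative to the median). Its change passed in 16 of 17 settings, but it was −0.26 relative to the median in Dtx1-positive Cd209a-negative cells. In lineage-filtered cells it was 23.4 and 9.73 against 68.8 and 69.4. CX3CR1, at 2.31 and 2.40 against 4.36 and 5.60, also fell (−0.84 ± 0.17, adjusted p = 0.00296), but members lay under the highest isotype control, 2.52 per 10000. Of the other antibodies that rose, CD43 was 324 and 273 against 199 and 223, CD29 298 and 284 against 214 and 230, CD272 30.4 and 30.0 against 17.1 and 19.2, and CD226 19.6 and 15.4 against 8.67 and 9.79. CD62L at 28.7 and 20.5 against 8.88 and 12.5 and CD49f at 37.4 and 30.7 against 15.4 and 19.7 also rose over all cells. In deep cells none of these 6 passed. KLRG1_mh was raised by 1 library only, at 20.5 and 2.72 against 1.24 and 1.48. Of the 12 antibodies that passed in deep cells, 5 were among the 31.

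The same contrast in cDC1-gate cells, 2121 with a sum of at least 6 against 5631 with a sum of 0, was used to test whether the 2 gates differed (an interaction term). The 2 contrasts share no cells. The same UMI sums were used in gates of unlike depth, so their classes are not matched. Median RNA UMIs were 7025.5 in proliferating cDC2 and 12706 in proliferating cDC1, and 3645 and 7925 in the comparison cells. The part of depth in the interactions was not tested apart from them. The interaction passed for 5.43% of genes (192 or 1.49% higher in cDC2, 508 or 3.94% lower, median of all genes −0.10). After the lineage filter it passed for 3.12% (247 or 1.98% higher, 141 or 1.13% lower, median 0.05). The split again depended on scaling, with 27.4% of calls higher under TMM, 49.2% under RLE normalization and 41.7% under library totals. Over the cell cycle lists, 2 S phase genes of 41 were higher and 5 lower, and 2 of 52 G2 and mitosis genes were higher and 7 lower. H2ax, the histone variant marked at DNA breaks, was 648 and 608 CPM in proliferating cDC2 against 34.4 and 32.2, and 429 and 460 against 55.1 and 61.4 in cDC1 (interaction 1.25, adjusted p = 1.8e-07). The polycomb gene Ezh2 was 250 and 251 against 44.2 and 40.7 in cDC2 and 185 and 194 against 55.0 and 59.6 in cDC1 (0.77, adjusted p = 5.15e-05). Both differences came with lower levels in comparison cDC2 than in comparison cDC1, and both held after the filter.

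The interaction passed for Ccnd2, but the low level of the gene in cDC1 left little room for a fall there. In cDC1 Ccnd2 was 3.29 and 8.36 CPM in proliferating and 4.09 and 5.96 in comparison cells. Its interaction was −2.24 (adjusted p = 8.01e-05, past the threshold in 15 of 15 settings from −2.91 to −1.82). Ccnd3 rose in both gates, from 65.1 and 66.7 to 129 and 128 CPM in cDC1, and its interaction of 0.11 did not pass (adjusted p = 0.692). Cdkn2d rose in both, but more in cDC1, from 6.61 and 7.80 to 58.0 and 61.2 (interaction −1.16, adjusted p = 2.27e-06). For Ccnd1 the interaction was −0.49 (adjusted p = 0.000826), which missed the threshold after the filter (adjusted p = 0.752). Mxd4 and Slfn5 fell in both gates, with interactions of −0.49 and −0.54 that did not pass (adjusted p = 0.211 and 0.223).

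Zeb2 fell in cDC2 but rose at low level in cDC1, from 1.87 and 2.59 to 4.90 and 5.66 CPM (interaction −2.32, adjusted p = 1.99e-08, past in 15 of 15 settings). Cd209a had an interaction of −1.92 (adjusted p = 0.000531), Csf1r of −1.81 (adjusted p = 3.45e-05) and Hpgd of −2.27 (adjusted p = 4.87e-07), all 3 at under 12 CPM in cDC1. Ms4a7 and Clec4b1 were also named, with interactions of −2.60 and −2.32. Bex6 was 85.4 and 86.5 CPM against 90.5 and 88.0 in cDC2 and 3.06 and 3.03 against 0.760 and 0.412 in cDC1, so its interaction of −2.55 was set against a rise at low level in cDC1. The 5 highest, Orm1, Cebpe, Camp, Ngp and Lcn2, were granule or granulocyte genes, and none of them passed or could be tested after the filter. Genes of the MHC class II list fell more in cDC2 in 5 of 12 over all cells and in 1 of 12 after the filter. H2-Aa was 9037 and 8792 CPM against 11681 and 11489 in cDC1 (interaction −0.31, adjusted p = 0.000117, and 0.754 after the filter).

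On the surface, 7 of 170 antibodies (4.12%) had an interaction past the threshold (5 or 2.94% higher, 2 or 1.18% lower), and 15 (8.82%) after the filter (13 or 7.65% higher), but 1, which was lower, without its granule step. Of the 7 calls 71.4% were higher, against 57.1% under RLE normalization. CD301a fell in cDC2 (interaction −1.65, adjusted p = 0.00234), while its change of 0.02 in cDC1 did not pass (adjusted p = 0.97). For CD11b_mh the fitted log2 change was 0.0047 in cDC2 (adjusted p = 0.982) and 0.61 in cDC1. Its interaction was −0.60 (adjusted p = 0.0256). As a share of antibody UMIs it was 782 and 672 per 10000 against 871 and 828 in cDC2, so its direction there depended on the scaling. CD8a, CD49f, CD24, CD29 and CD272 had the higher change in cDC2, with interactions from 0.51 to 0.91. In cDC1 the log2 change was −0.04 for CD8a and 0.02 for CD24 (adjusted p = 0.96 for each), 0.11 for CD29 and 0.13 for CD272. Within cDC2, CD8a and CD24 did not pass without the granule step (adjusted p = 0.0551 and 0.377) or in deep cells (adjusted p = 0.851 and 0.845). CD71 rose in both gates, from 9.30 and 9.85 to 27.7 and 28.8 per 10000 in cDC1 (1.62), and its interaction of −0.16 did not pass (adjusted p = 0.83).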

How the data were processed

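CITE-seq counted mRNA and antibody barcodes in single spleen cells of 2 libraries. The deposited values are raw UMI counts per feature and cell, as whole numbers without normalization, with both libraries in a single matrix per the file headers. Cell Ranger, STAR, Seurat 3.1.4 and mm10 are named in the submitters' processing notes, and no source used here says whether depth was equalised when the libraries were joined. Libraries were told apart by barcode suffix, and the numbers 1 and 2 follow that suffix.

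Of 31790 barcodes 29752 were kept. Counts were summed per class and library over 6 classes (sum 0, 1 to 5 and at least 6 in the cDC2 gate and in the cDC1 gate, the latter with XCR1 of at least 4 and CD172a of at most 2 UMIs). Sums were tested with edgeR 4.0.16 in R 4.3.3 (quasi-likelihood, TMM, filterByExpr, library as a block, two-sided, Benjamini-Hochberg threshold 0.05 over all features but those of the rule), and DESeq2 1.42.0 was an alternative. The block pairs classes that came from the same library and takes out the general difference between libraries. In the main fit the 6 classes share 1 estimate of spread, so cDC1-gate classes also enter the p-values within cDC2. Of 190 antibody features, 172 had at least 100 UMIs. On simulated counts for the comparison within cDC2 (12895 genes, 200 changed), 94% of 2-fold and 100% of 4-fold changes were recovered with 9 false calls. In the data a far larger share passed (31.8%), so the simulation cannot show the error that scaling brings at such a share. Intervals are 95% exact binomial and cover counting error only. Doublets were marked with Scrublet in scanpy 1.11.5 and kept.

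The members, lists and tests were chosen with earlier results of these data known. Named genes were the 6 rule genes, list members, antibodies past the threshold above the isotype controls, and genes past the threshold by size. For the comparison within cDC2 these were the 12 highest and 12 lowest outside the cell cycle lists, and for the interaction the 5 highest and 5 lowest. All needed at least 20 CPM in the higher class, a log2 change of at least 0.5 and the same sign in both libraries. Alternatives covered scaling, the block, the tool, the sum, the comparison cells, depth, doublets and lineage filters. A few genes that these rules, lists or filters include are not reported here.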

Additional observations from a re-analysis of the deposited data

Results flagged for a closer look

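The difference between the contrasts in cDC2 and cDC1 (the interaction term, in log2) passed its test for the features below, and no explanation was weighed. For the granule or granulocyte genes it was 11.14 for Orm1, 10.91 for Cebpe, 6.429 for Camp, 6.325 for Ngp and 6.03 for Lcn2. Orm1 and Cebpe were at 0 in both comparison cDC2 libraries, so their fitted values depend on the prior count and are no bounds. The lower genes were Ms4a7 at −2.604, Bex6 at −2.554, Zeb2 at −2.316, Clec4b1 at −2.316, Hpgd at −2.272 and the D cyclin gene Ccnd2 at −2.239. Among antibodies it was 0.9118 for CD49f, 0.8422 for CD272, 0.6289 for CD8a, 0.5505 for CD24 and 0.5144 for CD29. CD11b_mh stood at −0.6021 and CD301a at −1.652.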

How the results depend on the processing

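Calls within cDC2 numbered 4096 for RNA, and they stayed within 1.5 times of that in all alternatives but 2, cells of at least 5000 UMIs (2352) and Dtx1-positive Cd209a-negative cells (1764). RNA interaction calls numbered 700. They were 291 with no replicate block, 428 with DESeq2, 456 with comparison cells of sum 0 to 5, 211 in cells of at least 5000 UMIs, 341 with the lineage filter without its granule step, 388 with the full lineage filter and 200 in Dtx1-positive Cd209a-negative cells. Antibody calls within cDC2 numbered 31. They were 20 with no replicate block, 8 with isotype UMIs as library size, 12 in cells of at least 5000 UMIs, 19 without the granule step, 47 with the lineage filter and 9 in Dtx1-positive cells. Antibody interaction calls numbered 7. They were 0 with no replicate block in edgeR (14 at an unadjusted p under 0.05), 11 with DESeq2, 1 with isotype size, 3 above the isotype level, 3 with a sum of at least 4, 2 with at least 10 and 1 with 6 per 10000 UMIs. They were 1 with comparison cells of sum 0 to 5, 2 in cells of at least 5000 UMIs, 3 without Scrublet doublets, 1 without the granule step, 15 with the lineage filter and 1 in Dtx1-positive cells. The causes were not tested. Thinning moved the share of members to 30.3% and 37.2%. Reversed RNA changes within cDC2 were Ngp (−1.13), Lcn2 (−1.05), S100a9 (−0.24) and S100a8 (−0.81) under the lineage filter, and Ngp (−2.62), S100a9 (−0.39), S100a8 (−0.82) and Vcam1 (0.98) in Dtx1-positive cells. Reversed interactions were Ngp (−0.70) and Lcn2 (−0.93) under the filter, and Camp (−1.29), Ngp (−4.91) and Lcn2 (−0.068) in Dtx1-positive cells. Reversed antibodies within cDC2 were CD54 (−0.0271) above the isotype level, CD8a (−0.0395), CD48 (−0.0486), CD317 (−0.22), JAML (−0.0703) and CD2 (−0.11) at 5000 UMIs, and CD102 (−0.0085), KLRG1_mh (−0.16) and CD371 (−0.0367) without the granule step. In Dtx1-positive cells they were CD54 (−0.077), CD206 (0.12), CD24 (−0.17), KLRG1_mh (−0.60) and CX3CR1 (0.28). Reversed antibody interactions were CD24 (−0.0519) and CD29 (−0.10) with isotype size and CD24 (−0.16) in Dtx1-positive cells. Leaving out a library left no residual degrees of freedom, so no test was run on 1 library. With 2 libraries and 386 cells, low genes and antibodies near the isotype level are measured least firmly.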
